A study of Ovis aries with 36 samples.

Results

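Of the 14187 assembled loci that carry an Ensembl gene and span more than 10 kb, 4 took the largest counts when the 36 samples were summed, and they are described here across 9 lamb muscles. They are XLOC_013120 on chromosome 2, XLOC_008442 on chromosome 15, XLOC_026647 on chromosome 7 and XLOC_004416 on chromosome 11, out of 31136 distinct loci in all, 24763 of them with an Ensembl gene. They were chosen by their counts summed over the 36 samples, so that their totals are a description and not a finding, and only their differences between muscles were tested. Total RNA was sequenced from 4 unrelated male Poll Dorset cross-bred lambs. From the hindlimb and rump came Adductor (AD), Rectus femoris (RF), Semitendinosus (ST), Semimembranosus (SM), Gluteus medius (GM) and cranial Gluteobiceps (GB), from the loin Psoas major (PM) and Longissimus lumborum (LL), and from the shoulder Supraspinatus (SS). The lambs had been fed soy and sorghum beside pasture, no further treatment is named in the labels, and they were slaughtered at 14 months with live weights of 67 to 72 kg. Each muscle thus has 4 biological replicates, 1 per animal, and each animal gave all 9 muscles. The question put by the design was whether expression differs between muscles of unlike fibre type and meat quality.

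Skeletal muscle is built of long multinucleate fibres packed with sarcomeres, the repeating units in which thick and thin filaments slide past each other. Fibres differ in how fast they contract and in how they make ATP, and slow fibres use their own forms of several sarcomere and calcium-handling proteins, so muscles of unlike fibre make-up differ in the transcripts of those proteins. Messenger RNA of muscle is known to be dominated by a small set of very abundant contractile, metabolic and mitochondrial transcripts. The deposited files identify loci by assembly and Ensembl identifiers without gene names, so no name and no molecular role is stated here for the 4 loci.

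Samples held between 3699148 and 6427422 counts, with a median of 5905902, and the sample of animal 1 was the smallest in all 9 muscles. A set of 4 short loci without an Ensembl gene, 251 to 628 bases long, took 65.7% to 78.3% of a sample, and all loci with an Ensembl gene took 19.1% to 29.9%. TMM factors, which rescale library sizes so that most loci agree between samples, ranged from 0.665 to 1.33 and averaged 0.890 in SM, 0.841 in ST and 1.17 in GB. No pair of samples held identical counts, and over the 54 pairs of animals within a muscle the chi-square of their counts was 5.12 to 34.7 times its degrees of freedom, so replicates differed by more than counting error.

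The 4 loci are not alike in how they sit in the genome (assembly Oar_v3.1). XLOC_013120 lies at chr2:130196199-130477140, an interval of 281 kb that no other locus shares, and carries ENSOARG00000017195. XLOC_008442 is given as chr15:17504159-17562923, 58.8 kb, with ENSOARG00000021831, but 1 other locus has exactly the same interval. XLOC_026647 is given as chr7:39726640-39920340, 194 kb, with ENSOARG00000023024 and ENSOARG00000023941, and 11 other loci have that same interval. XLOC_004416 lies at chr11:28880148-29169247, 289 kb, is not shared, and joins 6 Ensembl genes (ENSOARG00000006444, ENSOARG00000007268, ENSOARG00000009609, ENSOARG00000011486, ENSOARG00000012656 and ENSOARG00000013899), as only 4 of the 31136 loci join 6 or more.

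Large size is therefore established by the files for XLOC_013120 and XLOC_004416 alone. A shared interval may be the span of several loci, and the length of XLOC_008442 and XLOC_026647 themselves cannot be read from it. Such sharing is common, as it affects 5383 (37.9%) of the Ensembl loci over 10 kb. Exon, intron and UTR boundaries were not used here, and since the length of the counted exons is unknown, counts of different loci are not compared per length below. For XLOC_004416 the counts of the 6 joined genes cannot be told apart, and a count for it may come from any of them.

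Almost none of the counts near each locus fell outside it. Within 100 kb of XLOC_013120 lie 8 other loci, which together took 2071 counts over the 36 samples against 8278362 for the locus itself (0.0250%), and the most counted was XLOC_014055 with 619. Near XLOC_008442 there are 5 loci with 4645 counts (0.0577% of its own), of which XLOC_008439 had 3484. XLOC_004416 has 3 neighbours with 558 counts (0.0276%), led by XLOC_004417 with 367. XLOC_026647 was the exception, with 13 neighbours that took 34313 counts (1.38%), and XLOC_026085, which has the same interval, had 23031 of them. Whether counting used the strand is not given in the sources used here, so it is uncertain how reads of overlapping or antisense loci on this interval were divided.

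XLOC_013120 took 4.11% of all counts of the series, XLOC_008442 3.99%, XLOC_026647 1.23% and XLOC_004416 1.00%. Together they held 10.3% of all counts and 39.9% of the counts on loci with an Ensembl gene. Between samples their joint share ran from 7.33% to 13.8% of all counts (median 10.1%) and from 33.7% to 47.8% of Ensembl-locus counts. By muscle it was lowest in SM, at 8.26% ± 0.745 (SD, n = 4), where the 4 short loci took most, 74.8% ± 3.59, and highest in RF, at 11.9% ± 0.978. SS had the widest spread between animals, from 8.85% to 13.8%. These shares are not a measure free of the short loci, because a larger share of one set leaves less for the other.

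**Figure D1:**
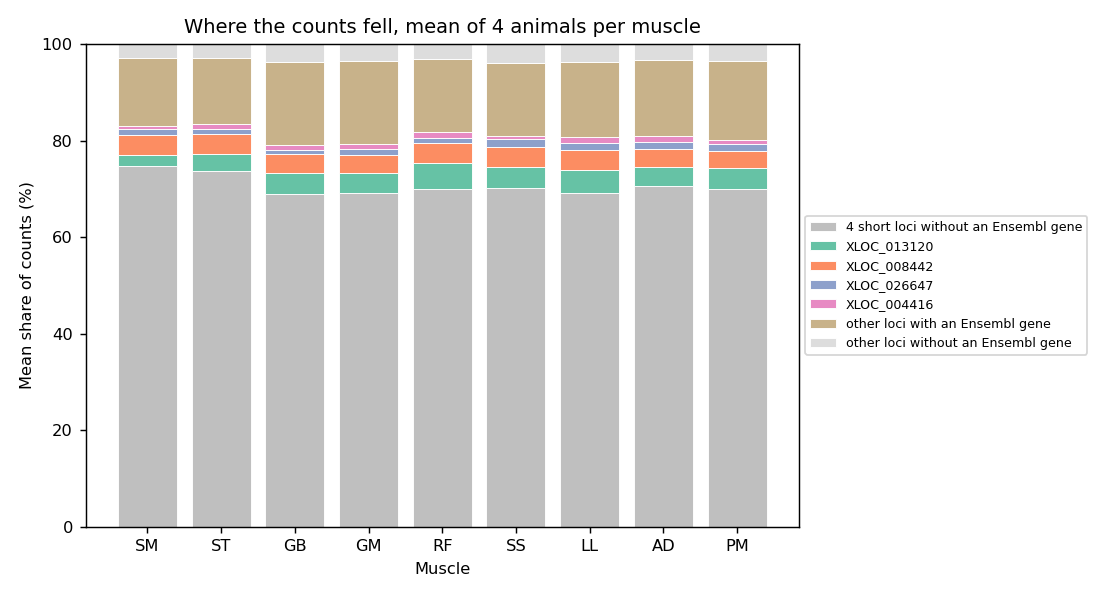
Stacked bars give the mean share of counts (%, 4 animals) in each of the 9 muscles for the 4 short loci without an Ensembl gene, the 4 loci described here and all remaining loci. The 4 loci together span 8.26% of counts in SM and 11.9% in RF, and the short loci fill 69.0% to 74.8% of every bar.

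Just inside and just outside the rule, the fourth locus, XLOC_004416, had 1.89 times the counts of the fifth, XLOC_013210 (1072565 counts, 0.532% of all, 0.229% to 0.828% of a sample). XLOC_018125 had 313687, XLOC_017778 302318 and XLOC_025941 268534 counts. The first of the 4 loci had 4.09 times the counts of the last. The smallest count of any of the 4 in any sample was 22829, and the widest 95% Clopper-Pearson interval of a share reached 1.30% of that share to either side. Counting error is thus far below the spread between animals given next, and these intervals cover counting error only, since reads without molecular identifiers are not independent molecules.

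XLOC_013120 was low in SM in every animal and was highest in RF in 3 of the 4. In SM it took 1.78%, 2.50%, 1.62% and 2.62% of counts in animals 1 to 4, and in RF 6.79%, 5.68%, 3.91% and 5.72%. All 4 SM samples lay below all 32 samples of the other muscles, the lowest of which held 2.75%. The same separation was found in CPM, the counts scaled to the TMM-normalised library, where SM samples had 26855, 20515, 23819 and 26461 and the lowest of the other 32 had 30065. It also held as a percentage of counts outside the 4 short loci, 7.45% to 9.72% in SM against at least 10.1% elsewhere. SM was the only muscle that stood wholly apart from the others in any of the 4 loci on these scales. Of all loci tested, 0.859% were called between SM and RF by the thresholds given with the test.

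No muscle but SM lay wholly above or below all the rest. ST samples held 3.62%, 3.00%, 3.99% and 3.24% of counts, GB samples 4.12%, 4.08%, 4.13% and 4.61%, and GM samples 3.37%, 3.33%, 4.79% and 5.30%. GB had the tightest spread, with a mean of 4.24% ± 0.252 (SD, n = 4). SS samples held 6.29%, 5.33%, 2.75% and 2.96%, so that animals 1 and 2 were about as high as RF while animals 3 and 4 were the lowest outside SM. LL samples held 6.12%, 4.23%, 4.95% and 3.50%, AD samples 3.52%, 5.45%, 3.53% and 3.52%, and PM samples 4.29%, 5.15%, 3.93% and 3.55%. In AD it is the sample of animal 2 that was high, and the other 3 were nearly equal.

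**Figure D2:**
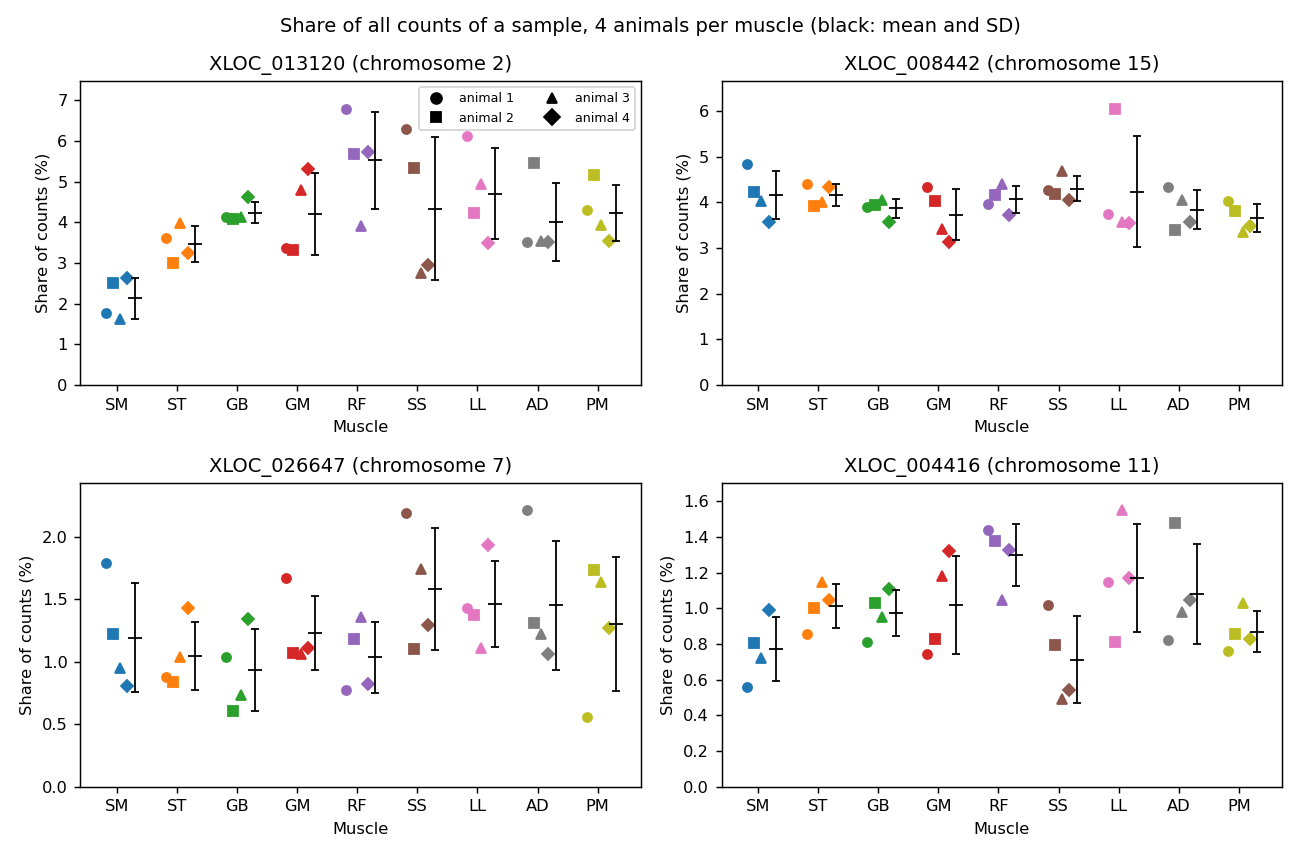
Share of all counts (%) of each of the 4 loci in each sample, by muscle, with a marker shape per animal and the mean and SD of 4 animals in black. XLOC_013120 is lowest in the 4 SM samples (1.62% to 2.62%), and XLOC_008442 lies between 3.14% and 4.84% except for LL of animal 2 at 6.05%.

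In the model across all loci, RF and SM differed in XLOC_013120 by a log2FC of 1.20 (SE 0.16 over the 4 within-animal differences; 2.30-fold; higher in RF in 4 of 4 animals), with an FDR of 0.00122 (quasi-likelihood test of edgeR, Benjamini-Hochberg adjusted over all loci tested). A pair was called where the FDR was 0.01 or less and the log2FC exceeded 1 in size. This was 1 of its 36 pairs, where 107 of 12461 loci (0.859%) were called between SM and RF and 0.749% of tests over the 36 pairs. LL and SM differed by 0.96 (SE 0.21; 1.95-fold; 4 of 4 animals), with an FDR of 0.00803 but a fold below that minimum. The FDR alone passed for these 2 of its 36 pairs, and for 1.40% of loci between SM and RF, 1.80% between SM and LL (1.01% with the fold) and 1.05% of tests over the 36 pairs. An unadjusted p under 0.05 was found for 12 of its 36 pairs (33.3%) and for 15.1% of tests over all loci. XLOC_013120 had its lowest CPM in SM against each of the other 8 muscles in 4 of 4 animals. The other 6 log2FC of SM ran from -0.59 against GM (SE 0.03, FDR 0.115) to -0.77 against ST (SE 0.02, FDR 0.0464) and SS (SE 0.25, FDR 0.0195), which did not pass. The call between RF and SM was lost without animal 1 (FDR 0.0137), animal 2 (0.0157) or animal 4 (0.0275), with the log2FC between 1.13 and 1.19, and held without animal 3 (log2FC 1.32, FDR 0.00905). It was also lost when only the 8 samples of both muscles were fitted.

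Tested over the 9 muscles jointly, XLOC_013120 had an FDR of 0.0136 and did not pass 0.01 in the quasi-likelihood fit, where 1114 of 12461 loci (8.94%) did. Of the 74 Ensembl loci with a mean count of at least 1000, 22 (29.7%) passed. The FDR of XLOC_013120 lay between 2.7e-06 and 0.0987 over the alternatives tried and its side of the threshold depended on them. Muscle means accounted for 57.1% of the variance of its log2 CPM and animal means for 4.71%, against medians of 42.4% and 12.8% over the 74 loci. Such means take some of the variance even where muscles or animals do not differ, and these values were not corrected for it. Within an animal, the highest muscle had 2.18 to 2.63 times the CPM of the lowest, which was SM each time. In the order RF, LL, ST, SS, PM, AD, GM, GB, SM by mean log2 CPM, no neighbouring pair of muscles passed the test (lowest FDR 0.165, between GB and SM).

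**Figure D3:**
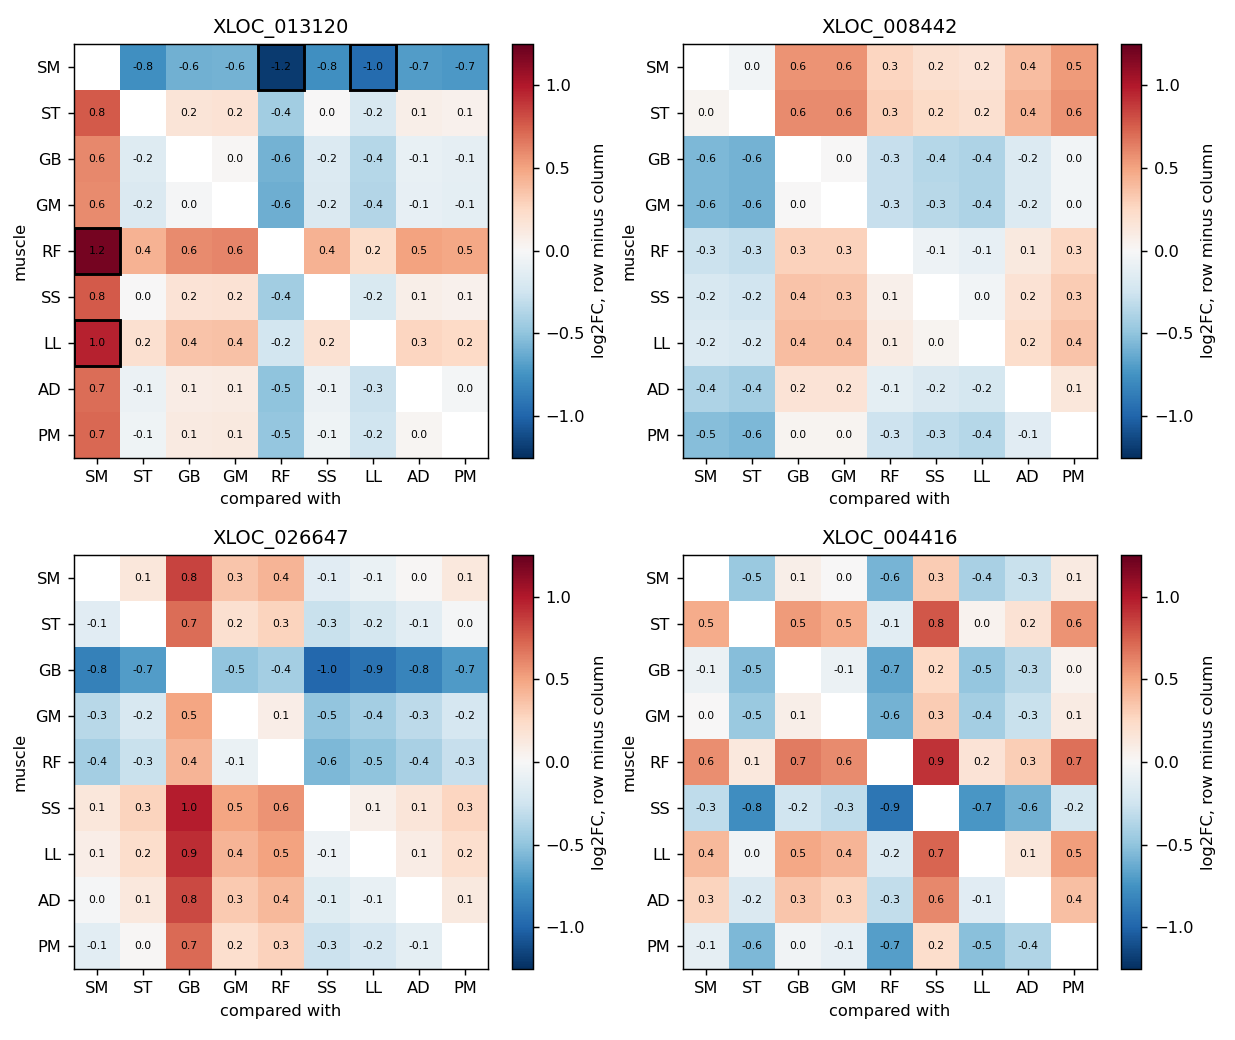
Fitted log2FC of the 4 loci for each of the 36 pairs of muscles, row minus column, with black frames where the FDR is at most 0.01. Frames appear only for XLOC_013120, between SM and RF (1.20) and SM and LL (0.96), and in its SM row every value is negative.

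XLOC_004416, which joins 6 genes, was highest on average in RF and lowest in SS. In RF it took 1.44%, 1.38%, 1.05% and 1.33% of counts in animals 1 to 4, a mean of 1.30% ± 0.175 (SD, n = 4). In SS it took 1.02%, 0.793%, 0.493% and 0.544%, a mean of 0.714% ± 0.245. All 4 RF samples were above all 4 SS samples, though the lowest RF (1.05%) and the highest SS (1.02%) nearly met, and 0.177% of all loci were called between these muscles. SM was also low, with 0.561%, 0.807%, 0.722% and 0.993%, and so was PM, with 0.761%, 0.856%, 1.03% and 0.827%. LL had the highest single sample, 1.55% in animal 3, beside 1.15%, 0.810% and 1.17%. ST samples held 0.856%, 1.00%, 1.15% and 1.05%, GB samples 0.811%, 1.03%, 0.95% and 1.11%, GM samples 0.745%, 0.831%, 1.18% and 1.32%, and AD samples 0.825%, 1.48%, 0.978% and 1.05%. The ranges of these 4 muscles overlap.

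None of the 36 pairs passed for XLOC_004416 at an FDR of 0.01 by quasi-likelihood in edgeR, and 14 of them (38.9%, against 15.1% over all loci) had an unadjusted p under 0.05. None passed both limits in DESeq2 either, though RF against SS passed the FDR limit there (FDR 0.00235) with a log2FC of 0.90, below the fold minimum. The 3 lowest FDR were those of SS: against ST the log2FC of SS was lower by 0.78 (SE 0.26, FDR 0.0225), against LL by 0.73 (SE 0.32, FDR 0.0337) and against RF by 0.90 (SE 0.16, FDR 0.0368), each with lower CPM in SS in 4 of 4 animals. The corresponding shares of all loci called were 2.29%, 2.42% and 0.177%. Without animal 1, 2 pairs passed. The joint FDR over 9 muscles was 0.0164 and ranged from 1.9e-05 to 0.245 over the alternatives. Muscle means took 57.2% of the variance of log2 CPM, nearly as in XLOC_013120. The order by mean log2 CPM was RF, ST, LL, AD, GM, SM, GB, PM, SS, and no neighbours in it passed the test (lowest FDR 0.678).

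XLOC_008442 took the most even share of the 4. Its share of counts varied by a CV of 13% over the 36 samples, from 3.14% in GM of animal 4 to 6.05% in LL of animal 2 with a median of 4.01%, against CVs of 30.1%, 32.9% and 26.2% for XLOC_013120, XLOC_026647 and XLOC_004416. Muscle means of the share differed by at most 1.17-fold, between 4.30% ± 0.270 (SD, n = 4) in SS and 3.66% ± 0.306 in PM. LL samples held 3.75%, 6.05%, 3.58% and 3.54%, so that animal 2 alone was high. SM samples held 4.84%, 4.22%, 4.04% and 3.57%, ST samples 4.41%, 3.93%, 4.00% and 4.34%, and GM samples 4.34%, 4.03%, 3.41% and 3.14%. RF samples held 3.97%, 4.17%, 4.41% and 3.72%, SS samples 4.27%, 4.19%, 4.68% and 4.05%, and GB samples 3.89%, 3.95%, 4.06% and 3.58%. AD samples held 4.33%, 3.39%, 4.06% and 3.58%, and PM samples 4.02%, 3.80%, 3.34% and 3.49%. None of the 9 muscles lay wholly above or below the rest.

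After TMM scaling XLOC_008442 looked less even, and its order of muscles changed. By CPM it was highest in SM and ST, at 50780 ± 18620 and 50669 ± 9519 (SD, n = 4), the muscles with the lowest TMM factors, and low in GB, GM and PM, at 33744 ± 6333, 34315 ± 11656 and 34618 ± 3251. The highest fitted difference, ST against GM, was a log2FC of 0.59 (SE 0.25, FDR 0.125; higher in ST in 4 of 4 animals) and was 0.17 (FDR 0.332) with library size alone in place of TMM scaling, a change of scale that shifts all loci between ST and GM by -0.43 on the log2 scale. None of its 36 pairs was called, by quasi-likelihood or DESeq2, and 6 (16.7%, near the 15.1% over all loci) had an unadjusted p under 0.05. The joint FDR was 0.211, ranged from 0.0239 to 0.631 over the alternatives and was 0.0810 without LL of animal 2.

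The CPM of XLOC_008442 moved with that of the short loci. Over the 36 samples Pearson's r of log2 CPM was 0.87 with XLOC_021940, 0.92 with XLOC_010844, 0.88 with XLOC_023098 and 0.59 with XLOC_002628, and 0.90 with their sum. It was 0.90 with the negative log2 of the TMM factor as well, and on the scale of log2 shares, which does not use that factor, the r with the summed short loci was 0.36. Taken singly in shares, it was 0.20 with XLOC_021940, 0.57 with XLOC_010844 and 0.43 with XLOC_023098. With XLOC_002628 it was -0.56, the reverse of the sign in CPM. For XLOC_013120 the r with the sum was -0.08 in CPM and -0.81 in shares. These samples share the library scaling and the 4 animals, shares of 1 library are tied to each other, and the part of the scaling in these values was not tested beyond the comparison of both scales.

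XLOC_026647 varied more between samples of the same muscle than between muscles. Its share ran from 0.554% in PM of animal 1 to 2.21% in AD of animal 1, and muscle means took 27.3% of the variance of log2 CPM, animal means 5.08% and the remainder 67.6%. This split was not particular to it. Muscle means took 34.3% and the remainder 56.6% for XLOC_008442, and the medians over all loci tested were 28.7% and 51.5%. Part of each muscle value is found even where muscles do not differ, and it was not subtracted. The biological coefficient of variation of XLOC_026647 in the fit, 0.349, was at the 94.6th percentile of the 74 highly counted Ensembl loci, whose median was 0.218. PM samples held 0.554%, 1.73%, 1.64% and 1.27%, and SS samples 2.19%, 1.1%, 1.74% and 1.29%. The sample of animal 1 was thus the lowest in PM and the highest in SS. It was the highest in SM, with 1.79% before 1.22%, 0.946% and 0.805%, in AD, with 2.21% before 1.31%, 1.22% and 1.06%, and in GM, with 1.67% before 1.07%, 1.06% and 1.11%. The sample of animal 4 was the highest in ST, GB and LL, and that of animal 3 in RF. ST samples held 0.880%, 0.838%, 1.04% and 1.43%, GB samples 1.04%, 0.606%, 0.737% and 1.34%, RF samples 0.775%, 1.18%, 1.36% and 0.822%, and LL samples 1.43%, 1.37%, 1.11% and 1.93%.

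None of the 36 pairs was called for XLOC_026647 by quasi-likelihood or DESeq2, and 5 (13.9%, near the same 15.1%) had an unadjusted p under 0.05. The largest was GB against SS, with a log2FC of -0.98 (SE 0.25, FDR 0.157; lower in GB in 4 of 4 animals). Mean CPM was 7984 ± 2594 (SD, n = 4) in GB and 16010 ± 5551 in SS. The joint FDR was 0.355 and ranged from 1.3e-04, with no filter on low counts, to 0.608 over the alternatives. The order by mean log2 CPM was SS, LL, AD, SM, ST, PM, GM, RF, GB, with no neighbours that passed. With 11 other loci on the same interval, its values are uncertain as those of a single gene.

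The loci did not vary as 1 group. Over the 36 samples Pearson's r of log2 CPM was 0.59 between XLOC_013120 and XLOC_004416, which are both long and unshared, and 0.84 once muscle and animal means had been removed. It was 0.66 in log2 shares, a scale without the TMM factors. XLOC_008442 and XLOC_026647, which share their intervals, had an r of 0.53 in CPM but of 0.18 in shares. The 4 remaining pairs had an r between -0.01 and 0.09 in CPM. In shares all 4 were negative, from -0.07 between XLOC_013120 and XLOC_026647 to -0.54 between XLOC_008442 and XLOC_004416. Shares of 1 library are tied to each other. The samples of 1 animal or of 1 muscle are not independent, and these values are descriptions.

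**Figure D4:**
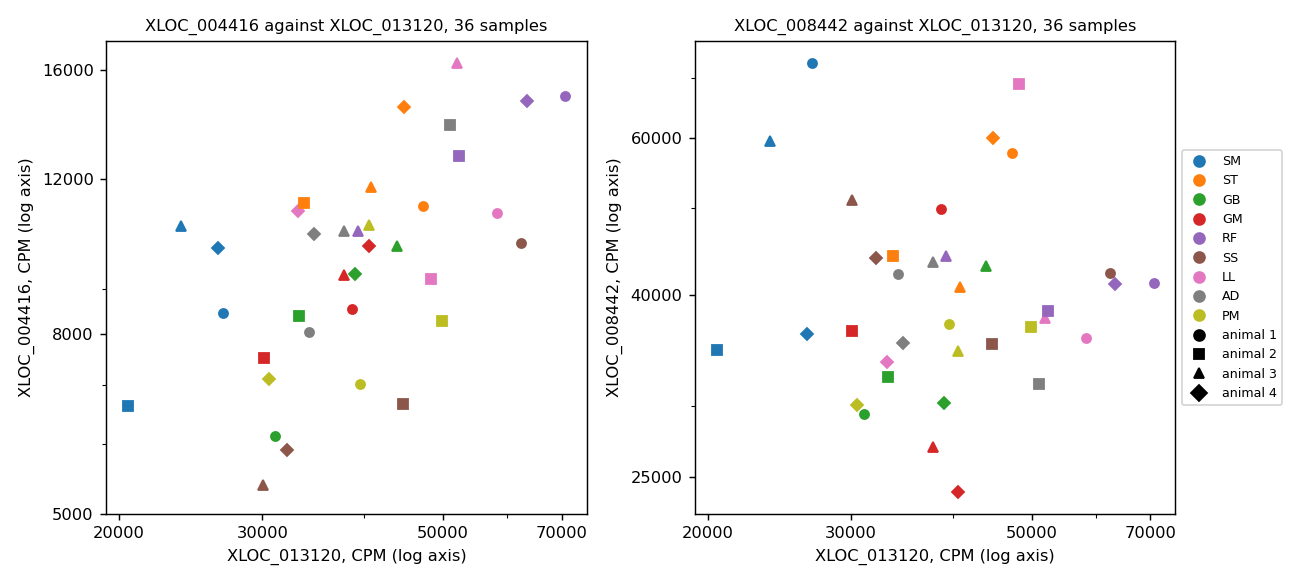
CPM of XLOC_004416 (left) and XLOC_008442 (right) against that of XLOC_013120 in the 36 samples, on log axes, coloured by muscle with a marker shape per animal. The left panel rises (r 0.59), with the SS samples towards its lower edge, and the right panel shows no trend (r -0.01).

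The ratio of XLOC_013120 to XLOC_004416 within a library needs no scaling and set SS and SM at opposite ends. It was highest in SS, at 5.97 ± 0.580 (SD, n = 4; 5.44 to 6.71), and lowest in SM, at 2.79 ± 0.435 (2.24 to 3.18). GB, GM, RF and LL had means of 4.39, 4.15, 4.22 and 4.18, ST 3.44 and AD 3.72. PM had 4.94 ± 1.06, and of the other 32 samples only 2, both of PM, lay above the lowest SS sample. At the other end, 29 of the other 32 samples lay above the highest SM sample, and ST of animals 2 and 4 and LL of animal 4 did not. In SS XLOC_004416 was thus low beside XLOC_013120, and in SM XLOC_013120 was low beside XLOC_004416. The ratio was higher in SS than in SM in 4 of 4 animals. An exact sign-flip test over 4 animals gives no p below 0.125, and no other test of this ratio was run.

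**Figure D5:**
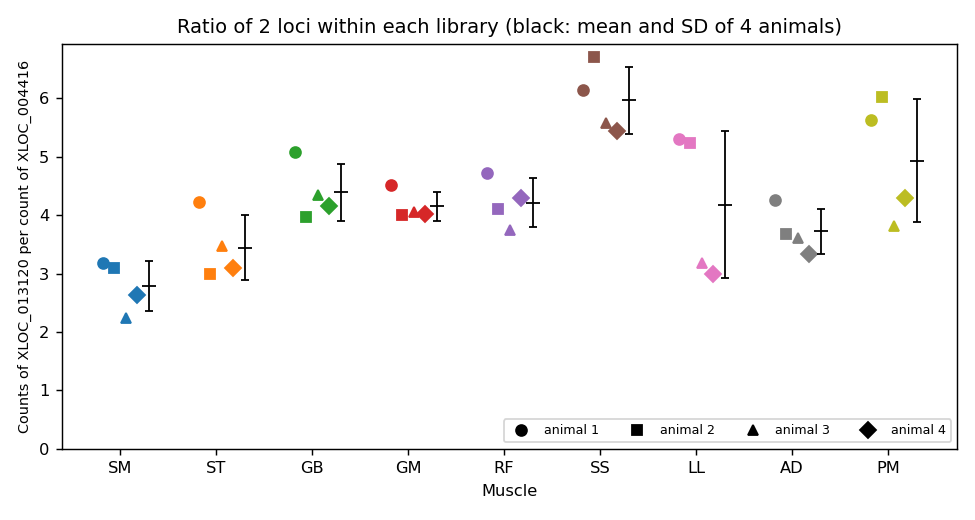
Counts of XLOC_013120 per count of XLOC_004416 in each sample, by muscle, with a marker shape per animal and the mean and SD of 4 animals in black. SS samples lie at 5.44 to 6.71 and SM samples at 2.24 to 3.18, and LL splits into animals 1 and 2 near 5.30 and animals 3 and 4 near 3.00.

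The loci whose pattern was most like each of the 4 were taken as those with the highest Pearson's r of log2 CPM over the 36 samples among Ensembl loci with a mean of at least 10 CPM. For XLOC_013120 they were XLOC_009049 (ENSOARG00000008069, r 0.80, mean 86.9 CPM), XLOC_006478 (ENSOARG00000014369, r 0.77, 160 CPM) and XLOC_013210 (ENSOARG00000008659, r 0.74, 5227 CPM). The last is the locus next below the 4 in counts. Some of the likest loci share their intervals, and that of XLOC_006478 is given to 23 loci. For XLOC_004416 they were XLOC_007558 (ENSOARG00000013964, r 0.83), XLOC_000588 (ENSOARG00000008405, r 0.83) and XLOC_016005 (ENSOARG00000006670, r 0.81), and 285 of 2586 candidates had an r above 0.5. For XLOC_008442 they were XLOC_018480 (ENSOARG00000003276, r 0.88), XLOC_016429 (ENSOARG00000005542, r 0.79) and XLOC_004411 (ENSOARG00000003306, r 0.74). The CPM of XLOC_008442 had an r of 0.90 with the negative log2 of the TMM factor, and likeness was not computed in shares. XLOC_026647 had the least similar partners, XLOC_016337 (ENSOARG00000012691, r 0.70), XLOC_014398 (ENSOARG00000023942, r 0.65) and XLOC_024572 (ENSOARG00000007328, r 0.65), and only 60 of 2582 candidates had an r above 0.5.

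Slow-fibre transcripts gave a different order of muscles from any of the 4 loci, and for XLOC_004416 it was partly the reverse. Of a list of 10 slow-fibre genes, 8 could be paired with 1 locus each through coordinates (MYL3, TNNT1, TNNC1, TNNI1, TPM3 and MYOZ2 of the sarcomere, ATP2A2 and CASQ2 of calcium handling), and none of the 8 was at 0 in any sample. The study listed all 8 among its most different genes between ST and SS in these samples, so they are no independent evidence. Their summed CPM was 1517 ± 241 (SD, n = 4; 1278 to 1773) in PM, 1227 ± 275 (951 to 1499) in SS, 482 ± 184 (259 to 708) in SM, 522 ± 217 (299 to 794) in RF and 135 ± 34.4 (100 to 179) in ST. It was 952 ± 167 in GB, 662 ± 129 in AD, 653 ± 197 in GM and 373 ± 163 in LL. PM, SS and GB, the highest on this sum, were the lowest in XLOC_004416 by mean log2 CPM. ST and LL, the lowest on it, came next after RF in XLOC_004416. SM and RF, the muscles that differed in XLOC_013120, overlap on this sum. Over the 36 samples the r of the log2 of this sum was -0.06 with XLOC_013120, -0.22 with XLOC_008442, -0.03 with XLOC_026647 and -0.49 with XLOC_004416. The part of fibre type in the values of XLOC_004416 was not tested, and in bulk muscle fewer fibres of a type and less RNA per fibre cannot be told apart.

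Of a list of 59 sarcomere genes, 7 could be paired with a locus. The study listed all 7 among its most different genes between ST and SS in these samples, each higher in SS. All but MYOM3 are also among the slow-fibre genes above. Their values against SS are therefore no independent evidence, and the 7 do not stand for sarcomere genes in general. Between SM and RF, the pair called for XLOC_013120, MYOZ2, a Z-disc protein of slow fibres, was higher in SM by a log2FC of 1.83 (SE 0.40, FDR 1.9e-04 by quasi-likelihood; 23.1 against 5.96 CPM). The other 6 were not called, and the median log2FC of the 7 was 0.27, beside 0.859% called and a median of 0.00 over all 12461 loci. These 6 went both ways. MYOM3 (-0.72), TNNI1 (-0.36) and MYL3 (-0.20) were lower in SM, and TPM3 (0.35), TNNC1 (0.33) and TNNT1 (0.27) were higher. Among the other slow-fibre genes, ATP2A2 was lower in SM (-0.92, FDR 0.0228 by quasi-likelihood) and CASQ2 higher (0.62, FDR 0.249), neither of them called. Of the fast-fibre genes listed only PVALB, a calcium buffer of fast fibres, could be paired, and it was lower in SM than in RF (FDR 9.9e-06), with 1, 0, 1 and 0 counts in SM of animals 1 to 4 against 74, 56, 19 and 18 in RF. It had 1, 2, 0 and 0 counts in LL, where XLOC_013120 was high, and 0 counts in all 4 AD samples. Its mean CPM was 5.65 ± 7.87 (SD, n = 4) in SS, the slow muscle of the study, and 5.7 ± 2.59 in ST, a fast one. The SS mean rests largely on animal 1, with counts of 76, 15, 7 and 9 against 29, 32, 37 and 9 in ST. PM, the highest on the slow-fibre sum, had a mean of 0.134 CPM. PVALB was thus near 0 in PM and also in LL, which was low on that sum. Its part in the values of XLOC_013120 was not tested. Between RF and SS, the extremes of XLOC_004416, 3 of the 7 sarcomere genes were lower in RF, 4 were not called, and the median was -1.51 (0.177% called and a median of 0.00 over all loci). Between SM and SS, the ends of the ratio, 5 of the 7 were lower in SM and the median was -1.19 (2.91% called and a median of 0.01 over all loci). Genes that mark adipocytes, endothelium, fibroblasts, macrophages, blood or Schwann cells could not be paired with loci, so the share of such cells in a sample was not analysed here.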

How the data were processed

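The authors aligned paired reads to Oar_v3.1 with TopHat2 2.0.13, merged Cufflinks 2.2.1 assemblies with the Ensembl annotation and counted reads per locus with HTSeq. The deposited values are whole-number counts without normalization. Of 31530 entries per file, 394 that repeat a locus for each joined gene were removed.

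The 4 loci and the gene lists were chosen with earlier results of these data known. Named beside them were up to 3 neighbours within 100 kb, the 3 likest loci by r (log2 CPM, prior count 2) and ranks 5 to 8 by counts. Marker genes were paired with loci by the coordinates given by the study.

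Loci passing filterByExpr by muscle (12461) were fitted with edgeR 4.0.16 (R 4.3.3) on all 36 samples, with TMM and with muscle and animal as factors, and tested by quasi-likelihood with Benjamini-Hochberg adjustment, over 9 muscles jointly (FDR at most 0.01) and for 36 pairs (also absolute log2FC above 1). Alternatives were DESeq2 1.42.0, the likelihood ratio test, robust fits, other scalings and filters, no animal factor, fits to 8 samples and each animal left out. Animal numbers are the replicate numbers in the sample titles, taken to stand for the animal. Deviations from muscle means correlated at 0.236 on average between samples of the same number (135 of 144 pairs above 0.1). Between samples of different number and muscle the average was -0.0777, negative in part because such deviations cancel within a muscle. These values show that same-numbered samples go together, not what they share. The procedure was tested on simulated data. SE are over within-animal differences. At 3 counts a locus has 0.366 to 1.03 CPM. The widest 95% Clopper-Pearson interval of a share of the 4 loci reached 1.30% of it. Sequences were not used here.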

Additional observations from a re-analysis of the deposited data

Results flagged for a closer look

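In 3 of 36 groups of 4 samples, 1 sample stood further from its nearest neighbour, as a part of the group's range, than Dixon's 95% critical value, where chance gives about 1 in 20 groups, 1.80 here. XLOC_008442 had 69051 CPM in LL of animal 2, against 33573 to 37630 in the other 3 animals (gap 0.886 of the range). XLOC_026647 had 19224 CPM in GM of animal 1, against 8343 to 9660 (0.879). XLOC_004416 had 14521 CPM in ST of animal 4, against 11204 to 11758 (0.833). The rule was run on CPM only, and the flags depend on that scale. As a share of all counts, XLOC_004416 in ST was highest in animal 3, at 1.15%, with 1.05% in animal 4.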

How the results depend on the processing

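The log2FC between the highest and the lowest muscle kept its direction for each of the 4 loci in all alternatives. Those pairs were chosen after the values. The order of muscles of XLOC_008442 and the sign of some correlations did change between CPM and shares. As percentages of counts outside the 4 short loci, the mean shares became 13.8 for XLOC_013120, 13.9 for XLOC_008442, 4.28 for XLOC_026647 and 3.37 for XLOC_004416, and of Ensembl-locus counts 15.5, 15.7, 4.84 and 3.81, since the denominators are smaller. The joint FDR of XLOC_013120 and XLOC_004416 passed 0.01 with no filter (2.7e-06 and 1.9e-05, with XLOC_026647 at 1.3e-04), with at least 10 counts in every sample (0.00743 and 0.00919), by likelihood ratio test (0.00358 and 0.0056), by DESeq2 (9.6e-05 and 3.4e-04) and in a robust fit (0.00478 and 0.00692). In the newer robust method only XLOC_004416 passed (0.00955), and without scaling factors only XLOC_013120 did (0.00208); these 3 settings, and a fit without LL of animal 2, were chosen after seeing the data. The cause of these changes was not tested. Pairs called for XLOC_013120 were 2 with no filter or with no fold minimum, 5 without scaling factors and 0 when only the 8 samples compared were fitted. Leaving out each animal in turn gave 0 to 1 pairs for XLOC_013120, 0 to 2 for XLOC_004416, a log2FC of RF against SM of 1.13 to 1.32 and 452 to 675 loci called jointly, and the fit without LL of animal 2 gave 1354. Without the replicate block 320 loci were called jointly instead of 1114, and the joint FDR of XLOC_013120 was 0.0279 and of XLOC_004416 0.0346, so no call on the 4 loci changed. With no filter 2384 loci were called, and 2119 by likelihood ratio test. At these depths counting error is small beside the spread between the 4 animals of a muscle.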
